A study of Caenorhabditis elegans with 2 samples.

Results

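The genes described here are the col- genes of Caenorhabditis elegans, most of which encode collagens of its cuticle, taken as every protein-coding gene of the WBcel235 annotation whose symbol starts with col-. They number 156 of the 19973 nuclear coding genes. Binding was read from anti-GFP chromatin immunoprecipitation sequencing (ChIP-seq) of the transcription factor ELT-2, and a gene was called bound if the summit of a peak lay between 1000 bp upstream and 500 bp downstream of any of its transcript starts. The peaks were those of the authors' optimal list from the irreproducible discovery rate (IDR) filter, which keeps peaks whose ranks repeat between the lists compared.

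The chromatin came from whole L3 larvae, all hermaphrodites, collected 40 hours after they had been synchronized by bleaching and starvation at L1. The strain, OP56, has the genotype unc-119(ed3) III with the transgene wgIs56, from which ELT-2 is made with a GFP-FLAG tag on the C-terminal end. The 2 biological replicates formed 1 group, so no conditions were compared and no test was made. Both replicates carry the same allele and transgene. The antibody therefore recovered the tagged protein made from the transgene, and in whole animals a peak cannot be assigned to a tissue. The IDR-passing list held 9198 peaks, the pooled list 30000 and the lists of replicates 1 and 2 held 28033 and 30000. The number of reads behind a peak is unknown.

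The cuticle is the collagenous outer coat of the worm, secreted by the epidermis and rebuilt at every molt. Most col- genes encode short collagens of this coat, with Gly-X-Y repeats that form triple helices, and they are transcribed in waves within each molting cycle. ELT-2 is the GATA factor of the differentiated intestine, where it binds TGATAA, whereas the epidermis uses the GATA factors ELT-1 and ELT-3, which recognise closely related sites. By this background, most col- genes are genes of the epidermis with promoters that can hold GATA sites. Their expression was not measured here.

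The proteins encoded by the annotated transcripts were mostly short. The longest product had a median of 304 residues over the 156 genes, and the range ran from 154 residues for col-55 to 740 for col-163. In 155 genes the product held a run of at least 10 consecutive Gly-X-Y triplets. The exception was col-17, whose annotated frame held no such run while another frame of the same transcript held a run of 21 triplets. The longest run, of 154 triplets, was in col-135. The set also holds col-99, a transmembrane collagen of 735 residues that is not a cuticle component. The name col- is therefore a label for collagens and not a list of cuticle genes alone.

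Of the 156 col- genes, 11 were bound, which is 7.05% (95% exact interval 3.57% to 12.3%). Over all nuclear coding genes 5323 were bound, or 26.7%. The bound col- genes were col-8, col-38, col-54, col-62, col-63, col-69, col-71, col-74, col-85, col-151 and col-185. They held 12 distinct summits, since col-69 held 2. For 6 of the 11 genes a summit in the window lay nearer to the col- start than to any other coding start, which is 3.85% of the 156 (1.42% to 8.18%), beside 22.1% of all coding genes. These intervals cover counting error only.

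**Figure D1:**
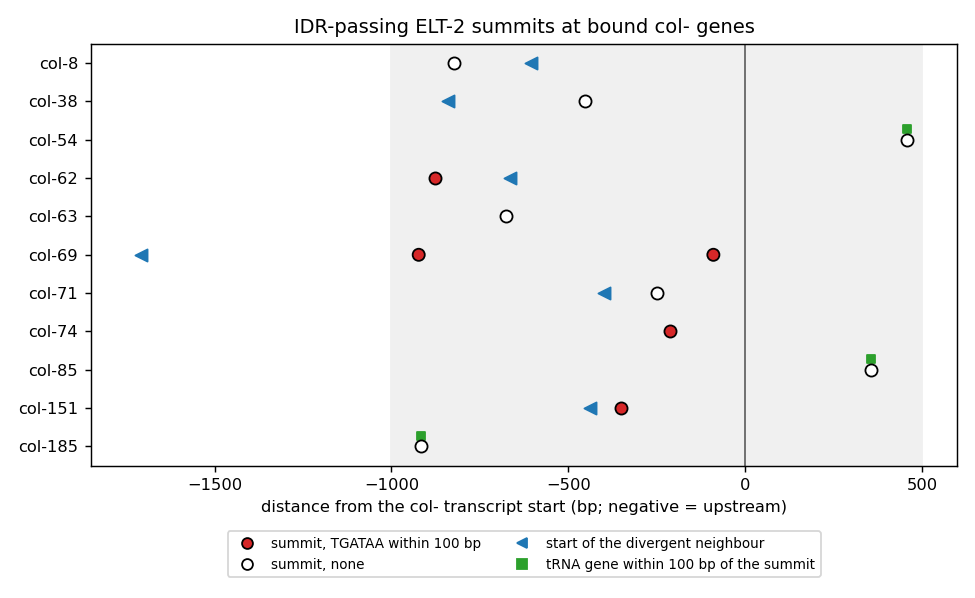
Position of the 12 IDR-passing ELT-2 summits (circles) relative to the transcript start of each of the 11 bound col- genes, in bp, with the promoter window shaded. Red circles have a TGATAA within 100 bp, blue arrows mark the start of a divergent coding neighbour, and a green square above a circle marks a summit within 100 bp of a tRNA gene. In 4 genes (col-38, col-71, col-151 and, for its far summit, col-69) the summit lies between the starts, and in col-8 and col-62 it lies past the start of the neighbour.

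Sequences at 6 of the 12 summits illustrate where they lay. The stretches below are the 50 bp on either side of a summit, from the RefSeq sequence of WBcel235 (ce11), read 5′ to 3′ on the strand of the col- gene, with TGATAA or its reverse complement TTATCA in capitals. At col-74 and the near summit of col-69 they show a summit at GATA sites next to the col- gene. At col-151, col-71 and col-38 the summit is nearer to the start of a coding neighbour than to the col- start. At col-85 it is at a tRNA gene. The stretch of col-74 is chrII:5830111-5830211 on the plus strand. The others are on the minus strand, at chrII:305785-305885 for col-69, chrV:10395524-10395624 for col-151, chrII:3502768-3502868 for col-71, chrII:8569490-8569590 for col-38 and chrII:12494688-12494788 for col-85.
col-74: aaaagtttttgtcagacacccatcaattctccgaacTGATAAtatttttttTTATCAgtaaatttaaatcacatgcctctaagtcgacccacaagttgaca
col-69: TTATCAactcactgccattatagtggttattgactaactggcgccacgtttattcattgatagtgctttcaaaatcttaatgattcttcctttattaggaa
col-151: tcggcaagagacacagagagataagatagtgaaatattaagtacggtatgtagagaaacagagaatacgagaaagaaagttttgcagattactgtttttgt
col-71: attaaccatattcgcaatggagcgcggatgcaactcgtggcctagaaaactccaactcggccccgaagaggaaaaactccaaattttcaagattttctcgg
col-38: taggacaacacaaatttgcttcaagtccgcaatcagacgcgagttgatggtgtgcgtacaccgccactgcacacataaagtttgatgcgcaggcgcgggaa
col-85: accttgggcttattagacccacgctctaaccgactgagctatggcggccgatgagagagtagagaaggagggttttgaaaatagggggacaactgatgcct

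The strongest peak among the col- genes was that of col-74. Its signal, the authors' value against the control, was 374, which ranked 2387 of the 9198 IDR-passing peaks, and it was 161 in the list of replicate 1 and 212 in that of replicate 2. The summit, at position 5830161 of chromosome II, lay 213 bp upstream of the col-74 start and inside an intron of gtap-1, a gene on the opposite strand. The sequence printed for col-74 shows 2 sites in opposite orientations, centred 12 and 3 bp from the summit. No other coding gene had this summit in its window. Among the 11 bound col- genes, col-74 was the only member with 2 or more TGATAA within 500 bp upstream of its start.

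The other summit next to a col- start with a site was the near summit of col-69. It lay 90 bp upstream of the start, at position 305835 of chromosome II, in intergenic sequence, with a TGATAA 47 bp away and other GATA elements (TGATAG on either strand, or the same motifs with A as the leading base) at 10 and 57 bp. Its signal was 99.6 (rank 7796), with 53.5 in replicate 1 and 52.0 in replicate 2, so it was among the weaker peaks of the IDR-passing list. The second summit of col-69 lay 923 bp upstream at position 306668, with a signal of 156, 2 TGATAA within 100 bp and 59.8 and 97.7 in the replicates. It was nearer to the start of K01A2.4, at 786 bp. The annotation thus leaves the near summit with col-69 and the far, stronger one with its divergent neighbour.

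A neighbour was closer to the summit at 5 further bound col- genes, and in all of them, as at the far summit of col-69, the neighbour was transcribed divergently. The start-to-start distances of the 6 pairs were 398 bp for col-71 and Y49F6B.2, 440 bp for col-151 and ugt-1, 606 bp for col-8 and rfl-1, 666 bp for col-62 and C15A11.7, 839 bp for col-38 and rpl-5, and 1709 bp for col-69 and K01A2.4. Each of these summits counted for both genes of its pair. A promoter window alone cannot say which gene of such a pair a peak belongs to.

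The peak of col-38 was the second strongest of the set. Its signal was 360 (rank 2509), with 132 in replicate 1 and 224 in replicate 2. The summit, at position 8569540 of chromosome II, was 452 bp upstream of col-38 but 387 bp upstream of rpl-5, which encodes ribosomal protein L5, and 22 bp downstream of the start of the non-coding RNA gene F54C9.17. No TGATAA and no other GATA element lay within 100 bp. The only TGATAA of the col-38 promoter, 186 bp upstream of its start, was away from the summit.

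The peak of col-151 had a signal of 219, with 110 in replicate 1 and 111 in replicate 2. Its summit, at position 10395574 of chromosome V, lay 351 bp upstream of col-151 and 89 bp upstream of ugt-1, a gene of the UDP-glucuronosyltransferase family that conjugates lipophilic compounds. The closest GATA elements were centred 24 and 29 bp away, both present in small letters in the sequence printed for col-151, and a TGATAA lay 91 bp from the summit, outside the printed stretch. The peak thus lay nearer to the enzyme gene than to the collagen gene.

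The remaining shared peaks were weaker. The summit at col-71 (128 in the IDR-passing list, 47.6 and 80.2 in the replicates) was 248 bp upstream of col-71 and 150 bp upstream of Y49F6B.2, without a GATA element within 100 bp. The summits at col-8 and col-62 lay within exons of the neighbour. At col-8 the summit was 823 bp upstream of the collagen gene and 217 bp downstream of a start of rfl-1, which encodes a subunit of the NEDD8-activating enzyme, with a signal of 92.7, the lowest of the 12. At col-62 it was 877 bp upstream and 211 bp downstream of a start of C15A11.7, with a signal of 117 and a TGATAA 20 bp from the summit. The replicates gave 44.7 and 46.1 at col-8 and 38.1 and 75.03 at col-62.

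For 4 bound col- genes, the nearest coding start was the col- gene but the nearest start of any annotated gene was that of a non-coding RNA. In 3 of them this was a tRNA gene. The summit of col-85 lay in an intron of col-85, 357 bp downstream of its start and 3 bp upstream of the tRNA gene T21B4.t1, with a signal of 192 and with 65.5 and 131 in the replicates. That of col-54 lay in its intron, 457 bp downstream and 11 bp upstream of the tRNA gene F33D11.t2, with 120, 46.9 and 72.3. That of col-185 lay 917 bp upstream of the collagen gene and 27 bp inside the tRNA gene H06A10.t1, with 131, 61.2 and 72.8. None of the 3 had a TGATAA within 100 bp.

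Summits within 100 bp of a tRNA gene were 3 of the 12 at col- genes, or 25%. They were 96 of the 5297 summits in coding windows, or 1.81%, and 302 of all 9181 nuclear IDR-passing summits, or 3.29%. The genome holds 612 nuclear tRNA genes in this annotation, and 4 col- genes contain one. Of these, col-54 and col-85 were bound, and col-72 and col-99 were not. With 12 summits the share is a description only, and what the tRNA genes contribute to these peaks was not tested.

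The fourth gene of this kind was col-63. Its summit lay 677 bp upstream of the start, inside an exon of the homeobox gene ceh-8 and 18 bp upstream of the non-coding RNA gene ZK265.11. Its signal was 276 (rank 3421), with 134 in replicate 1 and 140 in replicate 2. No GATA element lay within 100 bp of it, and no TGATAA within 500 bp upstream of the col-63 start.

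All 12 summits had a summit within 100 bp in the lists of both replicates. Since the IDR-passing list was derived from both replicates, this describes the positions and is no separate support for the peaks. The largest shift was 57 bp, for col-85 in replicate 1, and the only other of 50 bp or more was 53 bp, for col-185 in replicate 2. The median signal of the 12 was 144, beside 203 over all nuclear IDR-passing peaks and 205 over those in any coding window, and 4 of the 12 were above the nuclear median. A TGATAA lay within 100 bp of 5 of the 12, beside 53.9% of all nuclear summits and 51.3% of those in coding windows. The other 8 peaks at col- genes were in the weaker part of the list by signal.

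**Figure D2:**
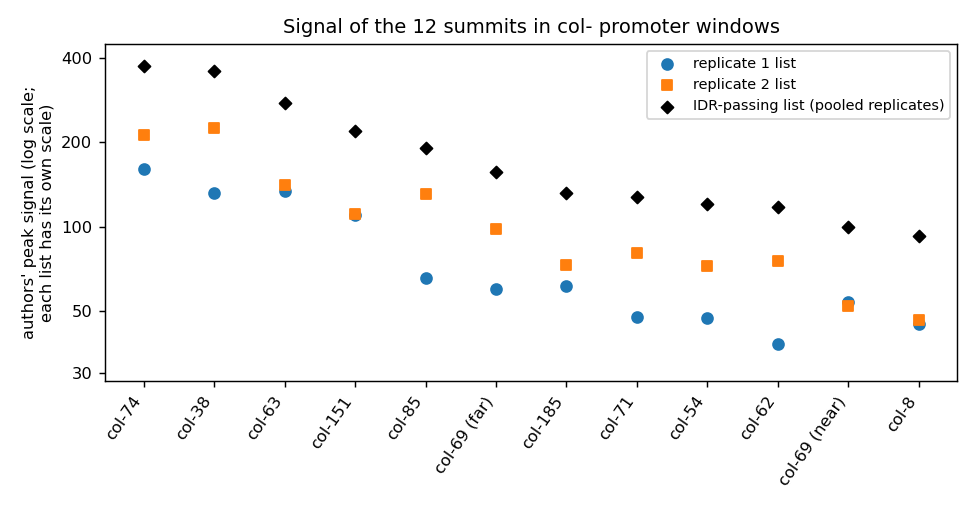
Authors' peak signal (log scale) of the 12 summits in col- promoter windows, in the IDR-passing list of the pooled replicates (diamonds) and in the lists of replicate 1 (circles) and replicate 2 (squares). Each list has its own scale, so symbols are compared across genes within a list; col-74 and col-38 lead in the IDR-passing list at 374 and 360, and col-8 is lowest at 92.7.

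By chromosome, the bound share was below that of the coding genes in every case. Chromosome II held 5 bound of 24 col- genes, or 20.8%, near the 27.3% of its coding genes. On chromosome I 3 of 21 were bound (14.3%, beside 27.1%), on III 1 of 12 (8.33%, beside 31.5%), on V 1 of 31 (3.23%, beside 23.1%) and on X 1 of 27 (3.70%, beside 28.3%). Chromosome IV held the most members, 41, of which 0 were bound, beside 25.7% of its coding genes. Of 16 col- genes whose windows overlapped that of another col- gene, 0 were bound, beside 33.5% of all coding genes whose window overlapped another coding window. Among the 99 col- genes whose window overlapped no other coding window, 4 were bound, beside 21.9% of all such genes. Among the 57 with a shared window, 7 were bound, beside 33.5%.

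Weak peaks that did not pass IDR were present at the unbound col- genes in a share near the background. In the list of pooled peaks, which includes background, 47 of 156 col- genes had a summit in the window, or 30.1%, beside 44.6% of all coding genes. Leaving out the 11 bound genes, these were 36 of 145, or 24.8% (18.03% to 32.7%), beside 24.5% of all unbound coding genes. The lists of the single replicates held 28.2% of the col- genes for replicate 1 (background 44.9%) and 26.9% for replicate 2 (background 43.8%). A summit in both replicate lists was found at 27 col- genes, or 17.3%, beside 39% of all coding genes.

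For these 36 genes, the signal of the strongest weak summit of each gene ran from 14.3 to 53.5 with a median of 21.1. All were below the lowest IDR-passing peak at 74.97. The strongest were those of col-101 (53.5, 16 bp downstream of the start), col-138 (43.8) and col-149 (43.4, 281 bp upstream), named for their signal after the values were seen. Of the 36 genes, 15 also had a summit somewhere in the window in both replicate lists, 19 in the list of 1 replicate and 2 in neither. The place of these summits was not matched between lists. No summit of any list was found at 95 col- genes, or 60.9%, beside 49.4% of all coding genes.

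A list of 11 col- genes held reporter and stage-specific collagens and the transmembrane collagen gene col-99. The others in it were col-2, col-7, col-10, col-12, col-19, col-34, col-38, col-49, col-62 and col-63. Of the 11, 3 were bound, all described above. That is 27.3%, near the 26.7% of all coding genes. However, the summits of col-38 and col-62 were nearer to rpl-5 and C15A11.7, and only col-63 was the nearest coding gene to its summit. The adult-specific collagen gene col-19, a common marker of the adult epidermis, had no summit in any list and no TGATAA within 500 bp upstream, though it had 4 of the wider set of GATA elements. For col-12 and col-10, widely used for epidermal expression, col-12 had no TGATAA and no summit, and col-10 had a TGATAA 145 bp upstream and a pooled summit of signal 23.9 at 32 bp downstream of its start that was also in the list of replicate 2 (14.4). The transmembrane collagen gene col-99 and the genes col-7, col-34 and col-49 had no summit in any list.

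The dauer collagen gene col-2 stood apart from these. It had no IDR-passing or pooled summit in its window, and the closest pooled summit was 19252 bp away from the replicate 1 summit, but the lists of both replicates had a summit there. The summit was 434 bp upstream of col-2 in replicate 1, with a signal of 53.6 (rank 6688), and 432 bp upstream in replicate 2, with 98.1 (rank 5444). It was closer to ndc-80, which encodes a kinetochore protein, at 252 and 254 bp. No TGATAA lay within 100 bp of it. Among 7801 peaks ranked within the strongest 9198 of both replicates, 11 (0.141%) had no overlapping pooled peak, and that at col-2 is one of them.

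TGATAA sites were common in col- promoters whether or not a peak was there. Within 500 bp upstream of a transcript start, 91 of the 156 col- genes held at least 1 TGATAA on either strand, or 58.3%, beside 49% of all coding genes. The 145 unbound col- genes held it in 81 cases, or 55.9% (47.4% to 64.1%), beside 43.8% of all unbound coding genes. At least 2 sites were held by 31 unbound col- genes, or 21.4%, beside 14.4%. Any GATA element, with TGATAA counted among them, was held by 124, or 85.5%, beside 72.9%. Within 250 bp upstream, 28.3% of the unbound col- genes held a TGATAA, near the 26.7% of all unbound coding genes. Over all 156 col- genes the share within 250 bp was 28.8%, beside 31.6% of all coding genes. Over the 500 bp upstream of the most upstream start, the median GC content was 35.7%, close to 33.8% over all coding genes. What base composition contributes to the site shares was not tested.

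Over the genome the bound share was higher with more sites, and at col- genes it was highest with 1 site. With no TGATAA, 1 of 65 col- genes was bound (1.54%, 0.0389% to 8.28%), beside 19.3% of all coding genes. With 1 site, 9 of 59 were (15.3%, 7.22% to 27.0%), beside 27.3%. With 2 or more, 1 of 32 was (3.13%, 0.0791% to 16.2%), beside 45.2%. In the genes with 1 site, that site was within 100 bp of a summit in col-69 and col-151 and farther away in the other 7.

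**Figure D3:**
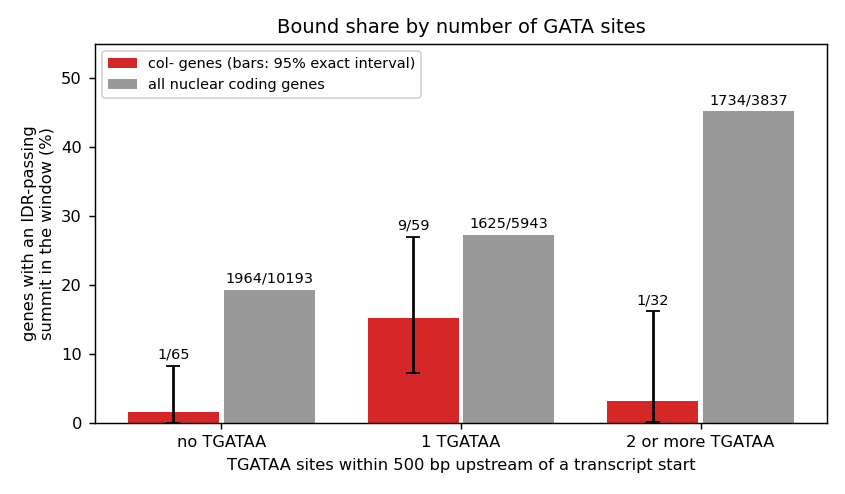
Percentage of genes with an IDR-passing ELT-2 summit in the promoter window (vertical axis) by the number of TGATAA sites within 500 bp upstream, for col- genes (red, with 95% exact intervals) and all nuclear coding genes (grey), with counts above the bars. The all-gene bars rise from 19.3% to 45.2%, and the col- bars are 1.54%, 15.3% and 3.13%.

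Counted by site, 132 TGATAA lay within 500 bp upstream of col- starts, and 4 of them (3.03%) had an IDR-passing summit within 100 bp, beside 19.4% of 14906 sites upstream of all coding genes. These 4 were the pair at col-74 and those at col-69 and col-151. With the pooled list, background included, 10 of the 132 (7.58%) had a summit, beside 26.0%. The closest site of a gene was also farther from a start at col- genes, with a median of 256 bp beside 171 bp over all coding genes. Among unbound genes it was 241 bp beside 192 bp. This distance was taken to any start of a gene, and 87.2% of col- genes had a single start, beside 72.6% of all coding genes. What the number of starts contributes to the difference was not tested.

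The unbound col- genes with most sites are named by a fixed rule, and the upstream stretches of 4 of them follow, chosen because they hold several sites close to the start. The stretches are the bases that end just before the most upstream transcript start, from the RefSeq sequence of WBcel235 (ce11), read 5′ to 3′ on the strand of the gene with TGATAA or TTATCA in capitals. They are chrX:12104780-12104929 on the plus strand for col-181, chrV:11829422-11829581 on the plus strand for col-158, chrIV:1460787-1461026 on the minus strand for col-106 and chrII:7168813-7168962 on the minus strand for col-36.
col-181: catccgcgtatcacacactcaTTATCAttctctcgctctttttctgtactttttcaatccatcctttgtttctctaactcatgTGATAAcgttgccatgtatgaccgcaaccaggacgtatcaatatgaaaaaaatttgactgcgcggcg
col-158: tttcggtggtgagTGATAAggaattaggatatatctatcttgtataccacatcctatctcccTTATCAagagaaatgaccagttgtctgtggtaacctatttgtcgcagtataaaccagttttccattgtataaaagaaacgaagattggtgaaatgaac
col-106: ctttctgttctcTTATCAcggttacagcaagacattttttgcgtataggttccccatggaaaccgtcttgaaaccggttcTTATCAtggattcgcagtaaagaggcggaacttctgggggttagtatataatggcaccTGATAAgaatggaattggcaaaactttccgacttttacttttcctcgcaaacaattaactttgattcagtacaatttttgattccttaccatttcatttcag
col-36: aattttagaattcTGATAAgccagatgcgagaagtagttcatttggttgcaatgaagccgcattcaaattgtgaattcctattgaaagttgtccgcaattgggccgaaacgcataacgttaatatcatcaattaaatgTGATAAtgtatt

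Among these genes col-181, col-155 and col-148 had 4 TGATAA each, and col-158, col-106, col-51 and col-153 had 3. The closest site of col-181 was 22 bp upstream of the second of its 2 starts, and that of col-36 was 7 bp upstream of its start. With 2 sites each, col-168 and col-166 had the closest at 12 and 14 bp. No summit of any list lay in the windows of col-181, col-155, col-148, col-51, col-36, col-168 or col-166. Weak pooled summits lay 75 bp upstream of col-158 (19.2), 312 bp upstream of col-153 (22.5) and 881 bp upstream of col-106 (16.7).

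**Figure D4:**
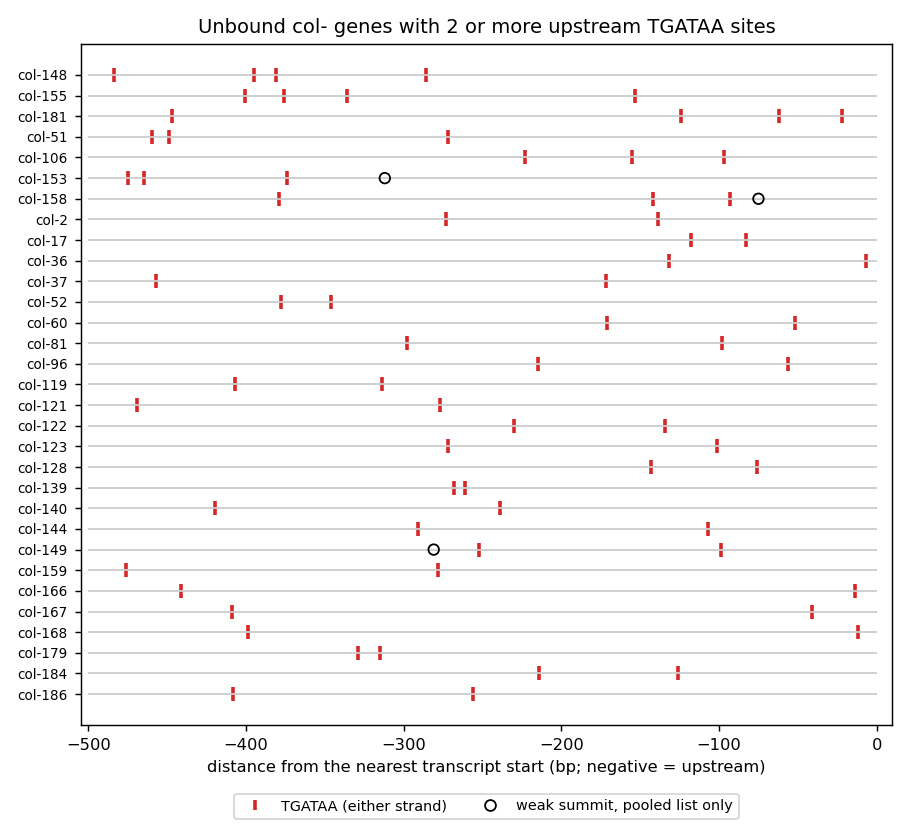
Position of every TGATAA (red ticks, either strand) within 500 bp upstream of a transcript start in the 31 unbound col- genes with at least 2 sites, in bp from the nearest start. Open circles mark the strongest weak summit of a gene in the pooled list, which did not pass IDR. Only in col-153, col-158 and col-149 does this summit lie inside the range drawn.

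For 10 of the 145 unbound genes the closest IDR-passing summit lay less than 1000 bp beyond the window edge. They were col-55, col-76, col-90, col-94, col-110, col-159, col-160, col-172, col-181 and col-184. The closest was the summit 755 bp downstream of the col-55 start, 255 bp past the edge, with a signal of 302 and no TGATAA within 100 bp. The strongest was 1560 bp upstream of col-90, with 379 and 2 TGATAA, and was 260 bp upstream of gsto-1, a gene for an omega-class glutathione transferase. The summit 1093 bp downstream of the col-172 start had a signal of 368 and 2 TGATAA and was 353 bp upstream of F38B6.4. The summit 1075 bp downstream of the second start of col-181 lay 2 bp upstream of a tRNA gene, with a signal of 173. Only the summits at col-90 and col-172 were nearer to the start of a coding gene that is not a col- gene. At col-55, col-76, col-94, col-110, col-160, col-181 and col-184 the nearest coding start was that of the col- gene itself. The summit at col-159 was the same as that at col-160. At col-94 the summit also lay 25 bp upstream of an snRNA gene. Over all 145 unbound genes the summit was a median of 5433 bp beyond the window, and it was over 5000 bp beyond for 80. The same distances over all unbound coding genes are not given here. These values therefore do not say whether col- genes lie nearer to or farther from peaks than other genes.

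Among 20 other cuticle collagen genes, known by the shape of their mutants and including dpy-7, rol-6, sqt-1 and bli-1, 1 was bound, or 5%, beside 26.7% of all coding genes. This was bli-6, a blister-type collagen gene, with a summit of signal 188 (52.8 and 135 in the replicates) 339 bp upstream of its start, nearer to hrpf-2, an hnRNP F homologue, and without a TGATAA within 100 bp. TGATAA was within 500 bp upstream in 11 of the 20, or 55%, beside 49% of all coding genes. These included dpy-10 with 3 and dpy-7, dpy-17 and bli-2 with 2 each. None of the 16 sites of the list had an IDR-passing summit within 100 bp, beside 19.4% of the sites upstream of all coding genes. A pooled summit lay within 100 bp of 5 of the 16, or 31.25%, beside 26.0%.

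The promoters of dpy-7, used to drive epidermal expression, and rol-6, the gene behind the common roller marker, show sites without a summit of any list in the window. The stretch of dpy-7 is chrX:7537793-7538092 on the minus strand and that of rol-6 is chrII:8732950-8733049 on the plus strand, drawn and marked as above. Both stretches end in CAG just before the annotated start. CAG stood there in 7 of the 20 other cuticle collagen genes, or 35%. It did so in 17 of the 156 col- genes, or 10.9%, beside 22.1% of all coding genes. Whether transcription begins at such annotated starts was not tested.
dpy-7: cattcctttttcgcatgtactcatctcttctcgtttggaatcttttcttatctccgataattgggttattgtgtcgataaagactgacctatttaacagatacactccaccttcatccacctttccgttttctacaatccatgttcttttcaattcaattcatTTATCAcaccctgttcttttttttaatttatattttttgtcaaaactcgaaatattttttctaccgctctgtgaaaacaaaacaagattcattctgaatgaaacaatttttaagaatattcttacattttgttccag
rol-6: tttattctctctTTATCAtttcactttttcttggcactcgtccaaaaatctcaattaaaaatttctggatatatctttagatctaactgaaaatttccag

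Genes that process collagens or regulate the epidermis were bound in shares near that of all coding genes. Of 13 genes for collagen processing and cross-linking, 3 were bound, or 23.1%, beside 26.7%. They were pdi-2, a protein disulfide isomerase that is also a subunit of prolyl 4-hydroxylase, with a signal of 379 and a summit 18 bp upstream of its start, dpy-11, a thioredoxin-like protein, with 132 at 36 bp downstream, and bli-4, a kexin-like convertase, with 123 at 349 bp upstream. None of the 3 summits had a TGATAA within 100 bp. The prolyl 4-hydroxylase genes dpy-18 and phy-2, the procollagen protease gene dpy-31 and the dual oxidase gene bli-3 were not bound.

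Of 12 epidermal transcription factor genes, 3 were bound, or 25%, again near the 26.7% of all coding genes. The peak of blmp-1, which sits 428 bp downstream of its start, had a signal of 875 and 3 TGATAA within 100 bp. The peak of lin-14 had 327, at 194 bp upstream, and that of elt-3, the epidermal GATA factor gene, had 105.6, at 384 bp upstream with 1 TGATAA. Of 6 other cuticle and molting genes (noah-1, noah-2, dpy-6, cut-2, mlt-10 and mlt-11) 0 were bound. Of 4 further collagen genes 0 were bound. The basement membrane collagen genes cle-1, emb-9 and let-2 were among these, emb-9 and let-2 being the type IV collagen genes. The other was mec-5, a collagen gene with a role in touch. With 26.7% of all coding genes bound, lists this short can say little. A weak pooled summit of signal 58.9 lay 330 bp downstream of the mec-5 start.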

How the data were processed

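ELT-2 ChIP-seq peak lists of 2 biological replicates were analysed. The authors called peaks on ce11 against a control library, per the deposited text files, as single-replicate lists, a pooled list and an IDR-passing list. Not given in the sources used here were the caller, the aligner, any version and the IDR threshold. The authors' signal per peak has a separate scale in each list, so it served to describe, filter and rank peaks within a list. Ranking did not use the deposited −log10 q. Summits were placed with the offset deposited for each peak, counted from its start. Depth is unknown, since no read counts were given. The ce10 lists were not used.

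Genes and transcript starts came from the WBcel235 annotation (Ensembl release 115), and sequences from the matching genome. Coordinates count from 1. TGATAA was searched on both strands, and so was the wider set of GATA elements, which adds TGATAG and, with A as the leading base, the same motifs. Shares have exact (Clopper-Pearson) 95% intervals. The members and gene lists were chosen with earlier results of these data known. Named genes were all bound col- genes with the genes sharing or nearest to their summits, unbound ones with a summit under 1000 bp past the window, the 10 unbound with most TGATAA, the reporter col- genes and the listed non-col- genes; others were named after their values were seen. The scripts ran in Python 3.11.15 with pandas 2.3.3 and numpy 2.4.6, intervals came from scipy 1.17.1, and figures from matplotlib 3.10.9. Summit assignment and the motif search were tested on simulated data.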

Additional observations from a re-analysis of the deposited data

How the results depend on the processing

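The 11 bound col- genes became 5 with a window of 500 bp upstream and 200 bp downstream, 4 with only the peaks at or above the median signal, 47 with the pooled list and 4 of 99 among genes with a window of their own. The 6 nearest to their summit became 2, 2 and 40 under the first 3 of these, and the 12 summits became 5, 4, 64 and 4. The 1 bound gene among the other cuticle collagens became 0 with those stronger peaks, 8 with the pooled list and 0 of 14 with own windows. In every one of these settings the bound share of col- genes stayed under that of all coding genes, which was 21.3%, 14.4%, 44.6% and 21.9%. The 81 unbound genes with TGATAA became 41 within 250 bp, or 28.3%, near the 26.7% of all unbound coding genes. They became 124 with any of the 4 GATA elements, beside 72.9%, and 31 with at least 2 sites, beside 14.4%. Among genes with no summit in any list, 51 of 95 col- genes held a site, beside 42.6%. Counting from the most upstream start only, an alternative chosen after seeing the data, gave 79, beside 39.8%. With the strongest 9198 peaks of a single replicate in place of the IDR-passing list, leaving out replicate 1 or replicate 2 gave 12 bound genes (12 to 12), 6 nearest (6 to 6), 13 summits (13 to 13) and 1 other cuticle collagen (1 to 1); the added gene was col-2 in both. Matching replicates within 50 bp left 9 of 11 genes, without col-85 and col-185. No paired analysis was possible because the samples form 1 group. The number of reads is unknown, so what depth hides among the weak peaks cannot be said.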
